A study of Homo sapiens with 18 samples.

Results

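The 39 genes described here encode secreted cytokines and chemokines: 20 chemokines, and 19 interleukins, colony-stimulating factors and members of the TNF family. They were chosen by name as a functional group, with earlier results of these data known, and each of the 39 has a row among the 55765 genes of the deposited table, where CXCL8 carries its older symbol IL8. A set of 19 reached a mean of at least 10 normalized counts (reads divided by a size factor per library) over the 18 libraries and were tested, and 20 did not.

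RNA was sequenced from cultures of G401, a line established from a malignant rhabdoid tumour, a childhood cancer defined by loss of the chromatin remodelling subunit SMARCB1. The cells called WT kept RB1 and had been edited with CRISPR/Cas9 at AAVS1, a safe harbour locus, whereas E1 and F2 were edited clones with both alleles of RB1 deleted. RB1 encodes the retinoblastoma protein, which restrains entry into the cell cycle. Cultures of WT, E1 and F2 were kept for 11 days either in 10 µM tazemetostat, a drug that blocks the histone methyltransferase EZH2, or in the matching volume of DMSO. That gives 6 groups with 3 biological replicates apiece. E1 and F2 are 1 clone each, so that in either of them RB1 loss and other features of that clone cannot be told apart. All groups share the G401 background and a passage through CRISPR/Cas9 editing, and p-values measure the spread between replicate cultures of the same line. In RNA from whole cultures, fewer expressing cells and less RNA per cell cannot be told apart.

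Chemokines are small secreted proteins that steer leukocytes along gradients, and cytokines such as IL6, TNF and CSF1 change the growth, survival and state of the cells that bear their receptors. Most of these genes are kept silent in resting cells of non-immune tissues and are switched on by stress, infection or tissue damage, often through NF-kappaB and AP-1, transcription factors that bind short motifs near their start sites. EZH2 is the catalytic subunit of Polycomb repressive complex 2, which places a histone mark found on silenced genes.

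Libraries held 25709489 to 39314860 reads, so that 3 reads, taken here as the floor of detection, corresponded to about 3 normalized counts. RB1 transcript was 2300.4 to 2828 normalized counts in the 6 WT libraries and 505 to 1045 in the 12 libraries of the clones, so the groups did not overlap. SMARCB1 had no read in any library and VIM, a mesenchymal marker, had 27409.6 to 69993 normalized counts. Values below are normalized counts in replicate order, and a gene was called when its limma adjusted p was under 0.05 over the 16154 tested genes and its log2 change, on the log2(normalized count + 1) scale, was at least 1 in size. Where DMSO libraries had no read, folds are lower bounds against 3 reads per library.

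Most of the 39 genes were silent or nearly so in DMSO. A total of 16 had no read in any of the 9 DMSO libraries, and 21 had at most 3 reads in each of them. With tazemetostat, 15 of the 19 tested genes were higher in WT, as were 13 in E1 and 15 in F2. None of the 19 was lower by limma, edgeR or DESeq2, and 0 had a fall at an unadjusted limma p under 0.05. TNFSF10, under the mean of 10 and so not among the 19, was called lower in WT and F2 with no filter (limma). Of all tested genes, 14.5% (WT), 11.3% (E1) and 13.3% (F2) were called higher and 6.77%, 3.78% and 3.71% lower, or 21.3%, 15.1% and 17.0% in either direction. The tested members had median log2 changes of 4.46 (WT), 3.10 (E1) and 5.40 (F2), beside 0.03, 0.02 and 0.02 over all tested genes. These counts carry a selection, because a gene silent in DMSO reached the mean of 10 only through its treated libraries and had to differ. Of the 15 called in WT, 11 had a mean under 10 in WT DMSO, as did 9 of 13 in E1 and 12 of 15 in F2, each in its own DMSO libraries. Among tested members with a DMSO mean of at least 10, 4 of 8 were higher in WT (IL6, IL34, CSF1 and IL32), 4 of 10 in E1 (CCL5, IL6, TNF and IL32) and 3 of 7 in F2 (IL15, IL34 and IL32). The corresponding shares over all genes with such a mean were 8.4%, 4.75% and 6.4%.

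**Figure D1:**
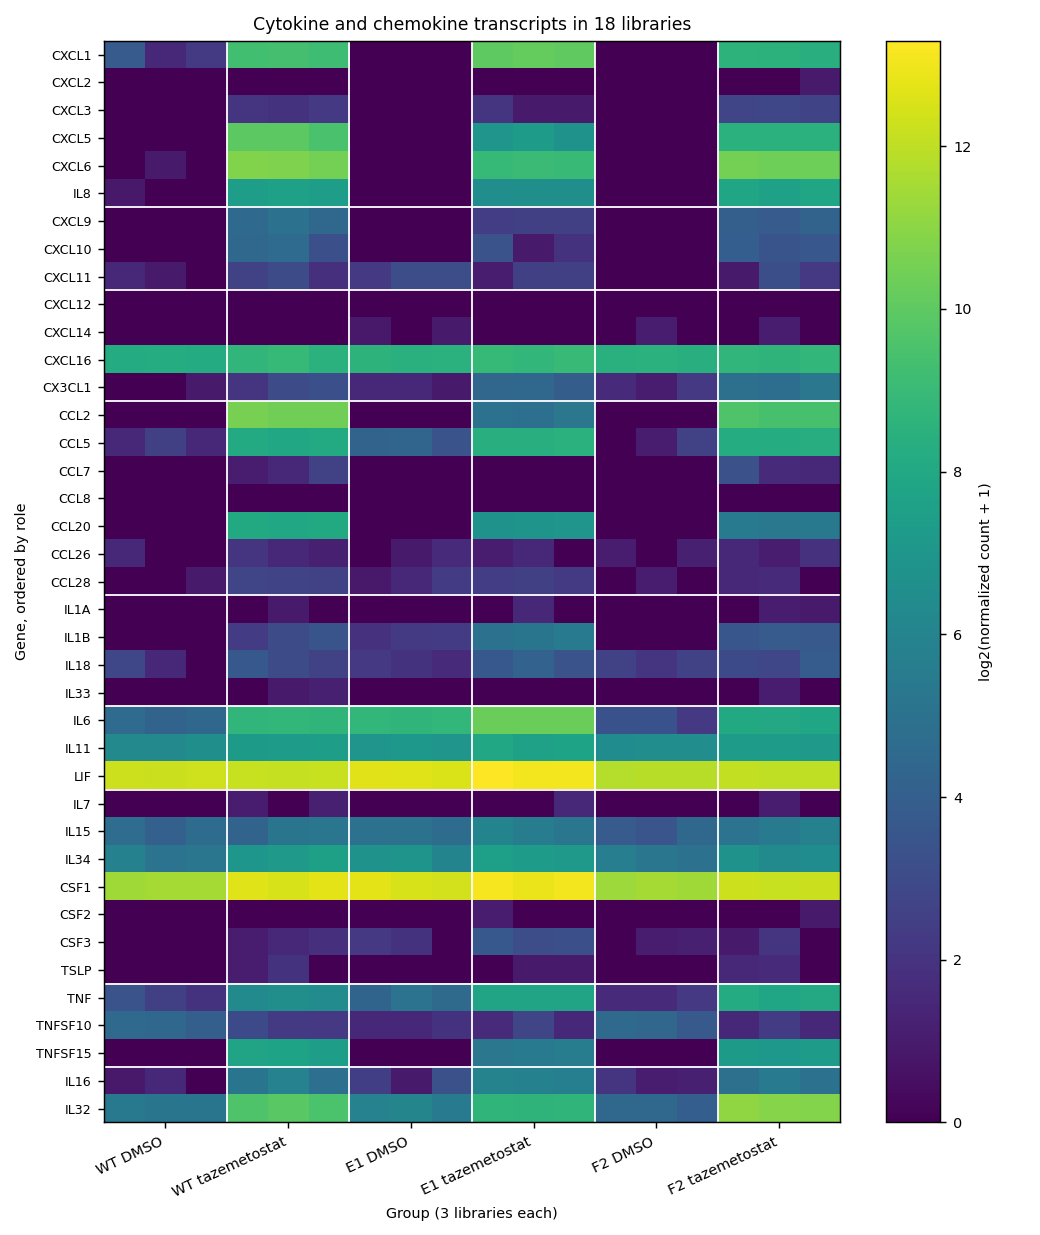
Heat map of all 39 genes in the 18 libraries, with genes in rows ordered by role and libraries in columns by group (3 each); colour gives log2(normalized count + 1). Most rows are at or near 0 in the DMSO columns, and the rows of LIF, CSF1 and CXCL16 are high in all 6 groups.

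A total of 13 genes were higher with tazemetostat in WT, E1 and F2 alike: CXCL1, CXCL5, CXCL6, IL8, CX3CL1, CCL2, CCL5, CCL20, IL6, TNF, TNFSF15, IL16 and IL32. Their limma adjusted p was at most 2.0e-05, for CX3CL1 in WT. IL34 was called higher in WT and F2, CSF1 in WT, and IL15 in F2. CXCL16, IL11 and LIF were tested and called in none of the 10 comparisons. The summed level of the epithelial markers EPCAM, CDH1, KRT8, KRT18 and KRT19, nearly all of it KRT8 and KRT18, was 39287 to 43898 in WT DMSO and 270804 to 283122 with tazemetostat, 56761 to 85169 and 151667 to 158520.4 in E1, and 22181 to 24417 and 146800.1 to 157869.7 in F2. KRT8 and KRT18 rose in each line, whereas EPCAM was lower in E1 and F2 (log2 -1.37 ± 0.37 and -1.14 ± 0.37, SE, limma adjusted p = 0.005 and 0.015). CDH1 was called higher in E1 only (log2 3.17 ± 0.27, SE, limma adjusted p = 9.9e-09). Of 12 leukocyte markers, 6 had at most 3 reads in every library, and PTPRC, the pan-leukocyte marker, never had more than 2. The sum over the 12, in which CSF1R and ITGAM were highest, was 65.3 to 77.3 in WT DMSO and 117 to 147 with tazemetostat, 116 to 147 and 197 to 226 in E1, and 65.4 to 80.1 and 108 to 128 in F2. ITGAM was called higher in WT, E1 and F2 (log2 1.96, 1.98 and 3.29), CSF1R in none (0.71, 0.04 and -0.10) and CD68 in E1 only (1.06). The sum of the endothelial markers VWF, CDH5 and KDR was 0.946 to 2.83 in WT DMSO and 40.4 to 46.8 with tazemetostat, 2.92 to 8.93 and 33.8 to 38.6 in E1, and 1.21 to 3.11 and 55.5 to 69.6 in F2. The sum of the fibroblast markers COL1A1, COL1A2, PDGFRA, DCN and LUM overlapped between DMSO and treated WT, was 3877 to 4592 in E1 DMSO and 3474 to 3521 with tazemetostat, and was 3371 to 3523 in F2 DMSO and 7293 to 8476 with tazemetostat. Its members moved in both directions: COL1A1 and LUM rose in each line, and PDGFRA had log2 changes of -0.93 (WT), -1.18 (E1, called) and -0.93 (F2). The part of these markers in the cytokine values was not tested.

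The neutrophil-attracting CXC chemokines, which act through the receptors CXCR1 and CXCR2, included the chemokine with the highest level per length of transcript in treated WT, CXCL6. Promoters are shown for the 5 members with the largest changes with tazemetostat that had an entry in the RefSeq promoter table, since 4 of them lie in 1 gene cluster on chromosome 4 and rose together. Each sequence is the 250 bases before the annotated start in GRCh38.p14, 5′ to 3′ on the strand of the gene, and capitals mark the match to the kappaB consensus, the site bound by NF-kappaB, or in IL8 to its 9-base core. CXCL6 lies on the plus strand at chr4:73836428-73836677, CXCL1 on the plus strand at chr4:73869143-73869392, CXCL5 on the minus strand at chr4:73998678-73998927, CCL20 on the plus strand at chr2:227813592-227813841 and IL8 on the plus strand at chr4:73740319-73740568.
CXCL6: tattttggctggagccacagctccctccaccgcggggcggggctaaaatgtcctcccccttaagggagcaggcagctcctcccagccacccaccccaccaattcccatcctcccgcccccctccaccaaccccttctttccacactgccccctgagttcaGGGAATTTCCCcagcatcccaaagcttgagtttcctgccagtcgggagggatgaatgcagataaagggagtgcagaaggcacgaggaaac
CXCL1: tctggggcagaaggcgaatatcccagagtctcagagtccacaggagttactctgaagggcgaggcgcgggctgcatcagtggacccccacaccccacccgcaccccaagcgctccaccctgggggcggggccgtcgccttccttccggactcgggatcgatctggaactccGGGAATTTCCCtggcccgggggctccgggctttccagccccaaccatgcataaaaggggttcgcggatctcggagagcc
CXCL5: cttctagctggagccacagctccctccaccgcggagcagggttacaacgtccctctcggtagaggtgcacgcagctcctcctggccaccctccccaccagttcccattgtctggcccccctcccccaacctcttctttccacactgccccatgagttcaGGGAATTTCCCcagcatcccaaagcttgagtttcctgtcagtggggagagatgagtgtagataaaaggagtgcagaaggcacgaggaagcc
CCL20: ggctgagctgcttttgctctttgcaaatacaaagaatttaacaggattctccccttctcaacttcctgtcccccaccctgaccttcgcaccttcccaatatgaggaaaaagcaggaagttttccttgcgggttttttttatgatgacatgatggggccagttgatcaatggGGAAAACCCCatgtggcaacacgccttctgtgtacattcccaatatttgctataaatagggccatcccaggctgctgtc
IL8: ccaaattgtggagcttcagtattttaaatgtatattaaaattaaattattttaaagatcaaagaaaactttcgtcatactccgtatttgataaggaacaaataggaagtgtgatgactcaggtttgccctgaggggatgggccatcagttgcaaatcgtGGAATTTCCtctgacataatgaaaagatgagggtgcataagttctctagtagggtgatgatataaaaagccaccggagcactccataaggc

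The windows of CXCL5 and CXCL6 shared a stretch of 45 identical bases that spans the capitals, while the longest stretch CXCL1 shared with either was 11 bases, the capitals themselves. In CXCL6, CXCL1 and CXCL5 the consensus matched on both strands at overlapping positions, starting 90, 79 and 91 bases before the start of transcription. In CCL20 the match was on the minus strand, 79 to 70 bases before the start. In IL8 the core began 91 bases before the start, a match to the AP-1 motif TGANTCA lay 137 to 131 bases before it, and TATAAA began 31 bases before it.

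Of the 39 genes, 28 matched an entry in the promoter table. The kappaB consensus, searched on both strands, was found in 10 of the 28 windows, beside 5.05% of the 27303 RefSeq windows of the same length. Among the 10 were CXCL1, CXCL2, CXCL3, CXCL5 and CXCL6, related genes that each carry the same GGGAATTTCC, so the windows are not independent. GGAATTTCC, searched on both strands and overlapping the consensus, was found in 8 of 28 against 0.429%, TGANTCA (both strands) in 7 of 28 against 6.60%, and TATAAA (strand of the gene) in 9 of 28 against 7.18%. GGAATTTCC was searched because CXC genes share it, so its excess among these members follows from that choice and tests nothing. The consensus was present in 6 of the 10 matched members called higher with tazemetostat in at least 1 line. CCL2, CCL5, CX3CL1, CSF1, IL34 and IL15 were also called higher but had no entry, so their windows were not searched. It was also present in 4 of the 17 matched members under the mean of 10, namely CXCL2, CXCL3, CXCL10 and CXCL11. Being under that mean did not mean no rise: with no filter on low values, limma called CXCL3 and CXCL10 higher in each line and CXCL11 in WT and F2. CXCL2 carries GGAATTTCC 77 to 69 bases before its start, and its single read among 18 libraries was in F2 with tazemetostat. A match describes these letters and no binding was measured.

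CXCL1 was 13.1, 1.88 and 3.79 in WT DMSO and 628, 655 and 564 with tazemetostat. E1 and F2 had no CXCL1 read in DMSO, and with tazemetostat 1034, 1147 and 1052 in E1 and 390.3, 370.4 and 339 in F2. Treated and DMSO libraries did not overlap in any line, and E1 had the highest treated values. The rise was 98.4-fold in WT, at least 380.5-fold in E1 and at least 112-fold in F2 (limma adjusted p = 5.3e-12, 1.5e-14 and 1.6e-13). In DMSO, WT was at least 2.21-fold above E1 and at least 1.91-fold above F2 (limma adjusted p = 2.8e-05 and 4.7e-05), from 21 reads in the 3 WT libraries, 15 of them in replicate 1, against 0. Without that library the rise in WT was 217-fold and the mean of WT DMSO, from 6 reads, was 1.00 times the floor of E1 and 0.866 times that of F2, so that it gave no distance above either clone. With only the WT and E1 DMSO groups in the fit, the first adjusted p was 0.057.

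CXCL5 had no read in any DMSO library. With tazemetostat it reached 969.7, 978 and 723 in WT, 124, 158 and 112 in E1 and 354, 356 and 363 in F2. Treated levels ran from WT through F2 to E1, with no overlap between lines, and the rise was at least 322-fold, at least 109-fold and at least 46.3-fold in that order. Among treated libraries CXCL5 was 6.79-fold higher in WT than in E1 (limma adjusted p = 1.2e-09) and 2.49-fold higher than in F2 (1.3e-05).

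CXCL6, whose gene neighbours IL8, was at 749 normalized counts per kilobase of exon in treated WT, ahead of CCL2 at 717. It had 1 read in the 3 WT DMSO libraries together and none in the clones. With tazemetostat it was 1742, 1692 and 1468 in WT, 482, 541 and 495 in E1 and 1481, 1317 and 1319 in F2. All treated libraries lay far above the DMSO libraries, and E1 lay below both other lines. The ratio in WT was 5373 (95% counting interval 964 to 212261), and the rise was at least 179-fold in E1 and at least 419-fold in F2. Without WT DMSO replicate 1 the ratio in WT was 3488 (626 to 137778), and without replicate 2, which holds the 1 read, the rise was at least 599-fold. Treated WT was 3.23-fold above treated E1 (limma adjusted p = 2.7e-06) and 1.19-fold above F2 (0.33, not called).

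IL8, the best known neutrophil attractant, had 1 read in WT DMSO and none in the other DMSO libraries. Treated WT had 170.5, 197 and 176, treated E1 90.5, 96.7 and 97 and treated F2 230.1, 195 and 223. E1 was again lowest, and WT and F2 overlapped. The ratio in WT was 594 (95% counting interval 106 to 23495), beside rises of at least 33.5-fold in E1 and at least 65.9-fold in F2, and the difference between treated E1 and treated WT fell short of the threshold of size (log2 -0.93 ± 0.23, SE, limma adjusted p = 0.0027). Without WT DMSO replicate 1, which holds the 1 read, the rise in WT was at least 64-fold.

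The other 2 neutrophil chemokines, CXCL2 and CXCL3, lie next to CXCL5 in gene order and stayed under the mean of 10. CXCL2 had 1 read in all, and CXCL3 had none in DMSO and 2.96, 2.81 and 3.69 in treated WT, 3.19, 0.967 and 0.942 in E1 and 5.83, 6.06 and 5.55 in F2. Adjacent genes thus differed widely: in treated F2, CXCL5 was 141 normalized counts per kb of exon and CXCL3 2.62. CXCL1, CXCL2 and CXCL3 are close paralogs, as are CXCL5 and CXCL6, so reads that fit more than 1 of them could have been split or dropped in counting, and the division between them is uncertain.

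**Figure D2:**
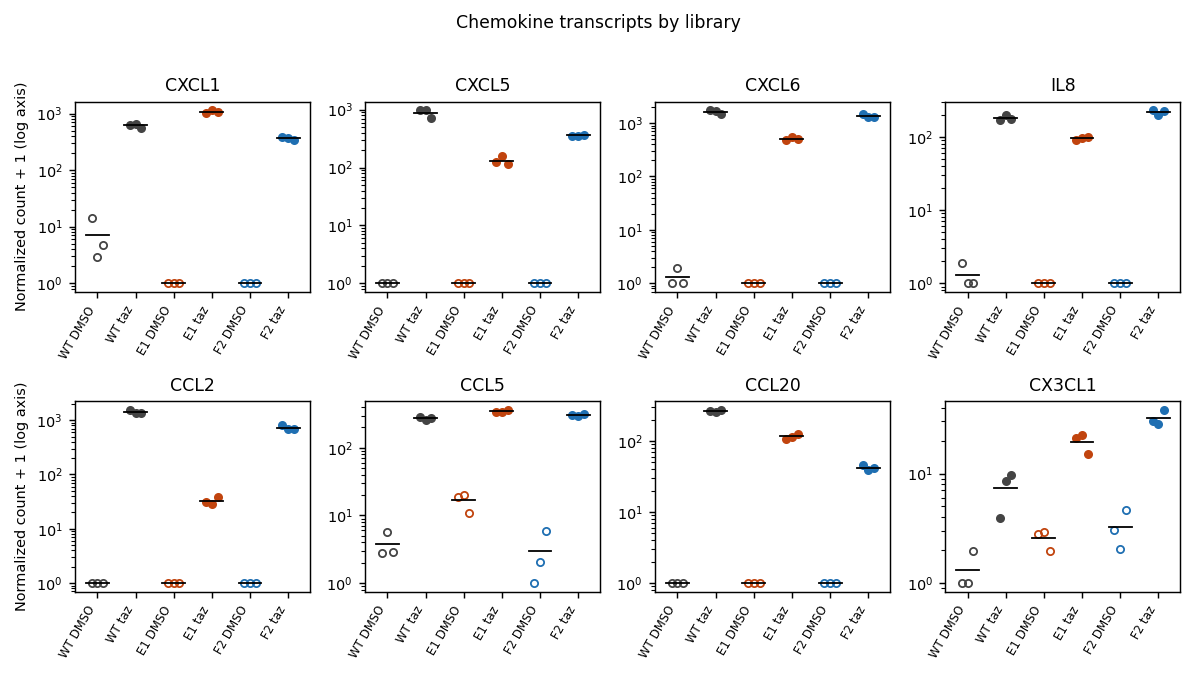
Normalized count + 1 (log axis) of 8 chemokines in each library, with open circles for DMSO, filled circles for tazemetostat and a line at the group mean. The 3 treated libraries lie above the 3 DMSO libraries of the same line in all 8 panels, and CCL2 in treated E1 lies far below treated WT and F2.

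CCL2, which attracts monocytes through CCR2, had no read in any DMSO library. Treated WT reached 1539, 1374 and 1357 and treated F2 799, 676 and 681, against 29.8, 28 and 37.7 in E1. Treated libraries of the lines did not overlap, and WT was 44.7-fold above E1 (limma adjusted p = 1.6e-13) but only 1.98-fold above F2 (log2 -0.99 ± 0.18, SE, adjusted p = 1.4e-04, just short of the threshold of size). The rise with tazemetostat was at least 515-fold in WT, at least 219-fold in F2 and at least 11.2-fold in E1. CCL7, the neighbouring gene in chromosomal order and another monocyte attractant, showed 0.985, 1.87 and 4.93 in treated WT, 8.74, 2.02 and 1.85 in treated F2 and no read in E1 or in DMSO. With no filter on low values, limma called CCL7 higher in WT and F2 (adjusted p = 0.0025 and 3.9e-04), from 7 and 13 reads.

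CCL5, which attracts T cells and monocytes, was 1.75, 4.71 and 1.89 in WT DMSO, 17.9, 19.3 and 9.74 in E1 and 0, 1.04 and 4.85 in F2. With tazemetostat it was 282, 254 and 276 in WT, 333, 338 and 362 in E1 and 302, 299.8 and 314 in F2. In DMSO E1 lay above WT and F2, which overlapped. E1 was 5.62-fold above WT in DMSO (limma adjusted p = 0.0011), whereas among treated libraries the difference was log2 0.35 ± 0.43 (SE; 95% interval -0.56 to 1.26, adjusted p = 0.52). The rise was 97.2-fold in WT, 22-fold in E1 and 156-fold in F2. F2 had 5 CCL5 reads in DMSO, 4 of them in replicate 3, and without that library the ratio in F2 was 593 (95% counting interval 106 to 23445). Without WT DMSO replicate 2 the rise in WT was 149-fold and E1 was 8.59-fold above WT in DMSO.

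CCL20, the ligand of CCR6, had no read in DMSO in any line. It reached 268, 253 and 273 in treated WT, 108, 115 and 123 in E1 and 44.7, 38.4 and 40.7 in F2. Rises of at least 95.9-fold, at least 40.7-fold and at least 12.6-fold followed in the same order of lines. No 2 lines overlapped, and here F2 was lowest, where CXCL5, CXCL6 and IL8 had E1 lowest. Treated WT was 2.3-fold above E1 (limma adjusted p = 4.0e-05) and 6.43-fold above F2 (1.9e-09).

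CX3CL1, or fractalkine, is made as a membrane-anchored chemokine and was low throughout. It was 0, 0 and 0.946 in WT DMSO and 2.96, 7.48 and 8.62 with tazemetostat. E1 went from 1.79, 1.93 and 0.974 to 20.2, 21.3 and 14.1, and F2 from 2.05, 1.04 and 3.64 to 29.1, 27.3 and 37. Both clones exceeded WT after treatment, by 2.92-fold and 4.9-fold (limma adjusted p = 0.0035 and 1.0e-04), and the libraries did not overlap. Its call in F2 against WT in DMSO (log2 1.30 ± 0.39, SE, adjusted p = 0.024) rests on 6 reads against 1 and was lost with edgeR (adjusted p = 0.1) and without any 1 of 4 libraries, the WT replicates numbered 1 and 2 and the F2 replicates numbered 1 and 3 (0.052 to 0.12).

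CXCL16, the other membrane-anchored chemokine, was 286 to 471 normalized counts in WT and 324 to 489.9 in the clones, and its largest change with tazemetostat was log2 0.50 ± 0.09 in WT (SE, limma adjusted p = 1.2e-04), under the threshold of size. Of the interferon-inducible chemokines, which draw activated T cells through CXCR3, CXCL9 and CXCL10 had no read in DMSO. CXCL9 was 22.7, 29.9 and 20.9 in treated WT, 4.26, 4.84 and 4.71 in E1 and 15.5, 13.1 and 17.6 in F2. For CXCL10, treated WT had 20.7, 24.3 and 8.62, treated E1 9.58, 0.967 and 2.83, and treated F2 14.6, 10.1 and 11.1. CXCL11 stayed at 8.07 or below in every library. With no filter on low values, limma called CXCL9 and CXCL10 higher in each line (adjusted p at most 0.0028). CXCL10 in treated E1 rests on 13 reads, 9 of them in replicate 1, and without that library its mean was 1.90, under the floor. The same fit called CXCL11 higher with tazemetostat in WT and F2 (limma adjusted p = 0.027 and 0.0068), and in E1 against WT in DMSO (0.029). CCL26, CCL28, CCL8, CXCL12 and CXCL14 never exceeded 5.91 normalized counts, and CCL8 and CXCL12 had no read in any library. CCL28 was called higher with tazemetostat in WT with no filter (limma adjusted p = 4.4e-04), from 16 reads against 1.

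IL6, a cytokine of acute inflammation that signals through the shared receptor chain gp130, differed between the lines before treatment. It was 24.5, 17.9 and 20.8 in WT DMSO, 440.2, 414 and 447 in E1 and 9.22, 9.34 and 3.64 in F2, with no overlap. E1 in DMSO stood at the level of treated WT, where IL6 was 434, 446 and 408. With tazemetostat E1 reached 1279, 1276 and 1271 and F2 266, 258 and 231. IL6 thus rose 20.4-fold in WT, 34-fold in F2 and 2.94-fold in E1 (limma adjusted p = 2.6e-12, 2.7e-13 and 6.6e-06). In DMSO E1 was 20.6-fold above WT (adjusted p = 3.3e-11), and WT was 2.85-fold above F2 (7.4e-05).

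The other 2 gp130 cytokines of the list, LIF and IL11, were called in none of the comparisons. LIF, which supports self-renewal in stem cells, had the most reads per kilobase of exon of the 39 genes in WT DMSO. It was 4935, 4828 and 5181 in WT DMSO and 4576, 4544 and 4659 with tazemetostat, with a difference of -0.12 ± 0.06 (log2 ± SE, adjusted p = 0.12 by limma). E1 had 6740.3, 6464 and 5951 in DMSO and 10062, 8563 and 8570.1 with tazemetostat, and treated E1 was 1.97-fold above treated WT, just under the threshold of size (log2 0.98 ± 0.06, adjusted p = 7.3e-10). In F2 LIF stayed between 3584 and 4281. IL11 was 75.4 to 98.4 in WT DMSO and 152 to 168 with tazemetostat, and its log2 changes of 0.93 (WT), 0.77 (E1) and 0.78 (F2) were each under 1.

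TNF, a central activator of NF-kappaB, was 9.61, 4.71 and 2.84 in WT DMSO, 18.8, 32.8 and 23.4 in E1 and 2.05, 2.07 and 3.64 in F2. With tazemetostat it was 79.8, 93.5 and 83.7 in WT, 217, 214 and 218 in E1 and 284, 223 and 255 in F2. Every treated library of the clones lay above every treated WT library. The rise was 15-fold in WT, 8.65-fold in E1 and 98.3-fold in F2, and treated clones exceeded treated WT by 2.52-fold and 2.97-fold (limma adjusted p = 8.4e-04 and 1.8e-04). The fold in F2 rests on 7 DMSO reads, with no library over 3. Without WT DMSO replicate 1 the rise in WT was 22.7-fold, and the distance of E1 above WT in DMSO was 6.62-fold. With it, E1 in DMSO was 4.37-fold above WT (3.3e-05), while F2 and WT did not differ by the threshold (log2 -0.81 ± 0.29, 0.056).

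TNFSF15, a TNF family ligand that co-stimulates T cells, had no read in DMSO. It reached 214, 211 and 175 in treated WT, 38.3, 44.5 and 48.1 in E1 and 151, 137 and 157 in F2. Rises of at least 72.4-fold, at least 15.4-fold and at least 45.4-fold followed in the same order of lines. E1 was lowest without overlap, and WT was 4.59-fold above it (limma adjusted p = 4.9e-08). TNFSF10, which encodes the death receptor ligand TRAIL, went the other way. It was 22.7, 20.7 and 15.1 in WT DMSO and 6.9, 3.74 and 3.69 with tazemetostat. In F2 it was 23.6, 19.7 and 12.1 in DMSO and 1.94, 4.04 and 1.85 with tazemetostat, while E1 was at or below 5.80 in both. TNFSF10 missed the mean of 10, and with no filter its log2 change was -1.85 ± 0.42 in WT and -2.44 ± 0.42 in F2 (SE, limma adjusted p = 0.0015 and 1.3e-04), and E1 differed from WT in DMSO by -2.67 ± 0.42 (2.1e-04).

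IL32, an inducer of other inflammatory cytokines, was 40.2, 34.9 and 35 in WT DMSO, 58.9, 64.7 and 42.9 in E1 and 20.5, 21.8 and 14.6 in F2. Treated WT had 800.2, 947 and 741, treated E1 419, 394 and 409 and treated F2 2144, 1911 and 1828. F2 had the lowest DMSO values and the highest treated values, with no overlap of lines after treatment. The rise was 22.6-fold in WT, 7.34-fold in E1 and 104-fold in F2 (limma adjusted p = 1.9e-14, 1.5e-11 and 6.1e-17). Treated F2 was 2.36-fold above treated WT (adjusted p = 3.3e-06). Treated WT was 2.04-fold above treated E1 (3.5e-05). That call fell below the threshold of size without WT replicate 2 or E1 replicate 2 (log2 -0.92 and -0.99), and with every library scaled to the same total (-0.95).

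IL16, a ligand of CD4 that attracts T cells, was 0.873, 1.88 and 0 in WT DMSO and 35.5, 58.9 and 28.3 with tazemetostat. E1 went from 4.46, 0.965 and 8.77 to 60.7, 56.1 and 52.8 and F2 from 3.07, 1.04 and 1.21 to 29.1, 43.4 and 29.6. Treated and DMSO libraries did not overlap in any line, and the treated lines overlapped or lay close together. The log2 changes were 4.51 ± 0.48, 3.61 ± 0.48 and 3.71 ± 0.48 (SE, limma adjusted p = 1.6e-07, 4.6e-06 and 2.7e-06). IL16 was called higher in E1 than in WT in DMSO (adjusted p = 0.04) from 15 reads against 3, and the call was lost with edgeR (adjusted p = 0.072) and without 1 of 4 libraries, WT DMSO replicate 1 or 3 or E1 DMSO replicate 1 or 3 (0.076 to 0.19).

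**Figure D3:**
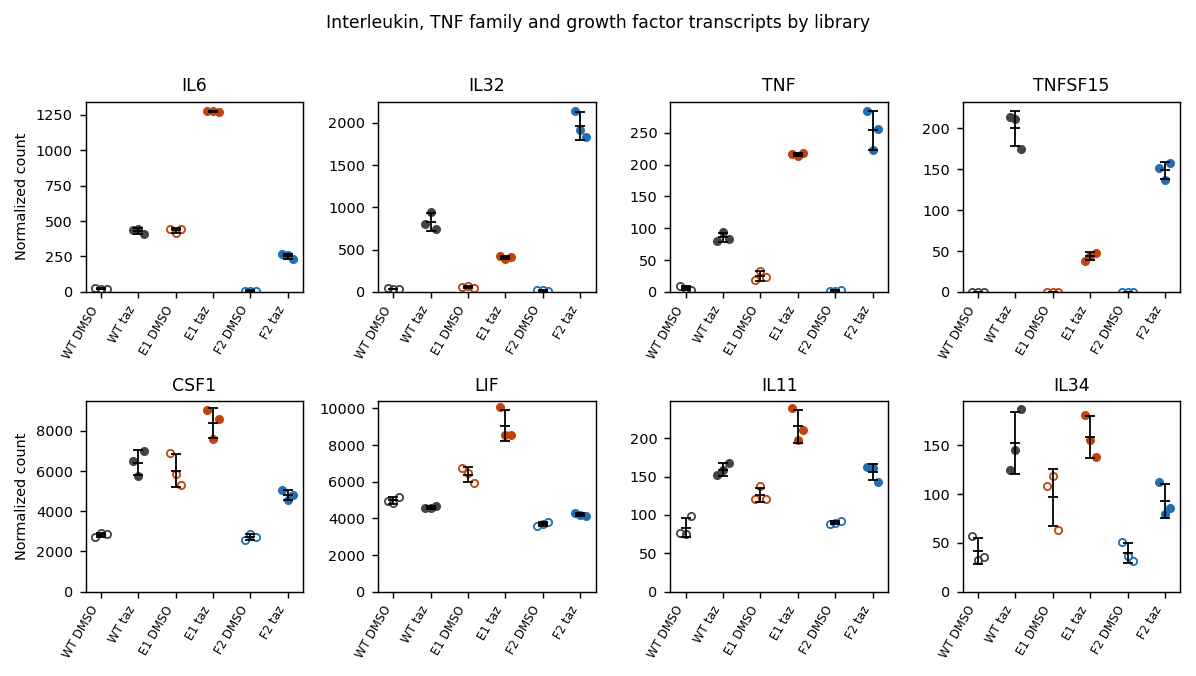
Normalized counts (linear axis from 0) of 8 cytokines in each library, with open circles for DMSO, filled circles for tazemetostat, and the group mean with SD as bars (n = 3). IL6 and TNF are highest in treated E1 or F2, IL32 in treated F2 and TNFSF15 in treated WT, and LIF lies between 4544 and 5181 in WT and between 3584 and 4281 in F2.

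CSF1 and IL34 encode the 2 ligands of the macrophage receptor CSF1R. CSF1 was 2723, 2895 and 2864 in WT DMSO and 6492, 5744 and 7017 with tazemetostat, a 2.27-fold rise (limma adjusted p = 1.8e-09). E1 had 6909.9, 5858 and 5292 in DMSO, 2.13-fold above WT (6.1e-08), and 9028, 7569 and 8570.1 with tazemetostat. F2 had 2578, 2884 and 2727 in DMSO and 5034, 4559 and 4799.8, and the log2 changes in E1 and F2, 0.48 ± 0.09 and 0.81 ± 0.09, stayed under the threshold of size. Without E1 DMSO replicate 1 the DMSO difference of CSF1 was log2 0.98. IL34 in WT went from 56.8, 32 and 36 to 125, 145 and 187, E1 from 108, 119 and 63.3 to 181, 156 and 138, and F2 from 51.2, 36.3 and 31.6 to 113, 79.7 and 86. IL34 rose 3.67-fold in WT and 2.34-fold in F2 (adjusted p = 3.9e-06 and 5.7e-04), and in DMSO E1 was 2.33-fold above WT (0.0022, and 0.092 with only those 2 groups in the fit).

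IL15, which sustains natural killer and memory T cells, was 13.3, 10.4 and 20.6 in F2 DMSO and 33, 43.4 and 56.4 with tazemetostat, a 3-fold rise (limma adjusted p = 3.6e-04). WT had 26.2, 16 and 24.6 in DMSO and 17.7, 35.5 and 35.7 with tazemetostat, and E1 had 30.4, 30.9 and 25.3 and 63.9, 49.3 and 35.8. Those groups overlapped in WT but not in E1, and neither change was called. IL1B, which needs cleavage by caspase 1 to be active, had no read in WT or F2 DMSO and was 2.68, 3.86 and 3.9 in E1 DMSO. IL1B with tazemetostat was 3.94, 7.48 and 9.85 in WT, 10.7, 13.1 and 12 in F2 and 30.9, 34.8 and 41.5 in E1, where it was highest. It was under the mean of 10, and with no filter limma called it higher in each line (adjusted p at most 1.3e-06). IL18 stayed at or below 17.4 and CSF3 at or below 11.7, both highest in treated E1. With no filter limma called IL18 higher with tazemetostat in WT and E1 (adjusted p = 0.026 and 0.019) and CSF3 in E1 (0.011). IL1A, IL33, IL7, CSF2 and TSLP had at most 3 reads in every library, as did CCL26, CCL8, CXCL12, CXCL14 and CXCL2.

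Before treatment, E1 and WT differed in 7 of the 19 tested genes, against 5.04% of all tested genes. Higher in E1 were 6 (IL6, CCL5, TNF, IL16, IL34 and CSF1), against 2.35%, and lower was CXCL1, against 2.69%. F2 and WT differed in 3, against 2.98% of all tested genes: CX3CL1 was higher (0.885% of all tested genes were) and CXCL1 and IL6 were lower (2.09%). The sign of IL6 was opposite in the 2 clones, and CXCL1 was undetected in both. Both comparisons use the same 3 WT DMSO libraries. Fitted on its own groups alone, E1 against WT in DMSO gave 4 genes, against 3.64% of all tested genes.

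After tazemetostat, E1 differed from WT in 9 genes, against 11.3% of all tested genes. CX3CL1, IL6 and TNF were higher (5.40% of all tested genes were), and CXCL5, CXCL6, CCL2, CCL20, TNFSF15 and IL32 were lower (5.95%). F2 differed from WT in 5, against 12.3%: CX3CL1, TNF and IL32 were higher (7.31%), and CXCL5 and CCL20 were lower (4.97%). Among all genes called in F2 against treated WT, 59.5% were higher, and with every library scaled to the same total 71.4% were. CX3CL1 and TNF were higher, and CXCL5 and CCL20 lower, in both clones than in the same 3 treated WT libraries. IL32 had opposite signs in the 2 clones.

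The change with tazemetostat itself was then compared between lines, as the log2 change in one line minus that in another. Between E1 and WT, 10 genes differed, against 10.0% of all tested genes: CXCL1 rose more in E1 (4.79% of all tested genes did), and CXCL5, CXCL6, CCL2, CCL5, CCL20, IL6, IL34, TNFSF15 and IL32 rose less (5.21%). Between F2 and WT, 5 differed, against 7.48%: CXCL1, TNF and IL32 rose more in F2 (4.82%), and CXCL5 and CCL20 less (2.66%). Between E1 and F2, 11 differed, against 5.81%: CXCL1 and CCL20 rose more in E1 (1.78%), and CXCL5, CXCL6, IL8, CCL2, CCL5, IL6, TNF, TNFSF15 and IL32 less (4.02%). Of these 26 differences, 14 concern genes with no DMSO library over 3 reads in either line, and in 13 of the 14 both lines had no DMSO read, so that the difference is that between treated libraries. The exception was CXCL6 between E1 and WT, where 1 WT read makes the difference -1.37, beside -1.69 between treated libraries. For these genes edgeR on the recovered reads called none of the 14, with 0 at an unadjusted p under 0.05. Where neither line had a DMSO read, its model fits any difference of changes, so that it could not call one. Between treated libraries edgeR called the same 9 (E1 against WT) and 5 (F2 against WT) genes as limma. Treated E1 was not tested against treated F2, so the differences between E1 and F2 among the 14 lack that check. DESeq2 called 1 of the 14 (CCL2 between E1 and WT), and edgeR called each of the other 12. CCL5 and IL34 between E1 and WT each lost their call without any 1 of 5 libraries (limma adjusted p = 0.053 to 0.065 and 0.056 to 0.062), and CXCL1 between E1 and F2 without any 1 of 11 (0.062 to 0.092). CXCL1 between F2 and WT was 0.30 with a pseudocount of 5 (adjusted p = 0.52): treated CXCL1 was lower in F2 than in WT, and the larger rise rests on the 21 DMSO reads of WT. Between E1 and WT the CXCL1 difference of 3.34 also draws on those 21 reads, through a DMSO difference of log2 -2.53 (E1 against WT). Treated CXCL1 had means of 1078 in E1 and 615 in WT and was not called between them.

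In each of the 12, some DMSO library of the lines compared held over 3 reads. The log2 change of IL6 in E1 minus that in WT was -2.74 ± 0.30 (SE, limma adjusted p = 1.6e-06), and E1 started 20.6-fold higher. TNF rose more in F2 than in WT by log2 2.36 ± 0.41 (2.8e-04) and IL32 by 2.18 ± 0.22 (1.1e-06). For TNF the F2 DMSO libraries held 7 reads, none over 3, against 19 in WT, so part of that value rests on few reads. For IL32 the change in E1 minus that in WT was -1.58 ± 0.22 (2.6e-05).

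**Figure D4:**
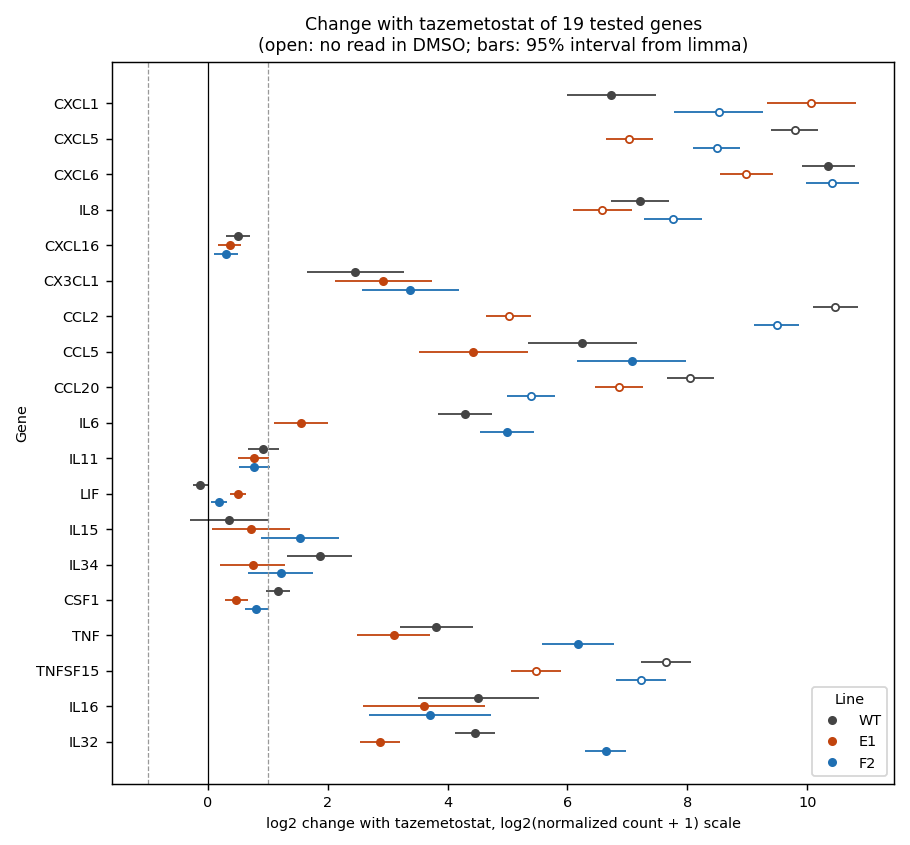
Log2 change with tazemetostat, on the log2(normalized count + 1) scale, of the 19 tested genes in WT, E1 and F2, with 95% intervals from limma; open symbols mark genes with no DMSO read in that line, and dashed lines mark a change of 1 in size. CCL2 is at 10.47 in WT and 5.03 in E1, IL6 at 1.55 in E1 and 5.00 in F2, and LIF and CXCL16 lie within the dashed lines in each line.

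Receptors and pathway genes were counted from lists drawn up by function, with earlier results of these data known. Of 40 cytokine and chemokine receptors, 39 were in the table and 17 were tested. With tazemetostat the higher ones numbered 8 (WT), 6 (E1) and 9 (F2), and none was called lower by limma, edgeR or DESeq2 (1, 4 and 1 at an unadjusted limma p under 0.05). LIFR, the receptor chain for LIF, was 3.05 ± 1.01 in WT DMSO and 1357 ± 54.5 with tazemetostat (SD, n = 3, limma adjusted p = 4.0e-12), and it was also called in E1 and F2. CXCR2, the receptor of the neutrophil chemokines, was 0.314 ± 0.544 and 32.3 ± 1.40 in WT (1.2e-10). ACKR3, a scavenger of CXCL11 and CXCL12, had no read in WT DMSO and 414 ± 36.3 with tazemetostat, beside 43.4 ± 4.56 in treated E1 and 117 ± 16.9 in treated F2. CCR1, a receptor of CCL5, was 221 ± 5.61 in WT DMSO and 5.22 ± 3.63 in F2 DMSO (limma adjusted p = 1.4e-09).

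Of 32 NF-kappaB subunits, regulators and feedback genes, all tested, the higher ones numbered 13 (WT), 6 (E1) and 11 (F2), and none was called lower by limma, edgeR or DESeq2 (4, 2 and 2 at an unadjusted limma p under 0.05). TNFAIP3, a ubiquitin-editing enzyme that damps NF-kappaB, was 167 ± 10.9 in WT DMSO and 4898 ± 202 with tazemetostat (SD, n = 3, limma adjusted p = 1.1e-19), and in E1 209 ± 14.8 and 8386 ± 299 (3.0e-20). The adhesion molecule VCAM1 had no read in DMSO in any line and was 39.4 ± 8.75 in treated WT and 83.6 ± 18.7 in treated E1. Of 20 tested JAK-STAT and interferon regulatory genes, WT had 2 higher and 1 lower, E1 1 and 1, and F2 2 and 1. IRF1, an interferon-responsive transcription factor, was called higher in each line, with log2 changes of 1.98, 1.18 and 1.97. SOCS2 was lower in WT, and CISH, another feedback inhibitor of JAK-STAT signalling, in E1 and F2.

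Of 8 tested processing and decoy genes of the interleukin 1 and 18 family, those higher numbered 6 (WT), 6 (E1) and 5 (F2). CASP1, the protease that matures IL1B and IL18, had no read in DMSO in any line and was 153 ± 41.1 in treated WT, 144 ± 17.6 in treated E1 and 183 ± 13.8 in treated F2 (SD, n = 3, limma adjusted p at most 1.9e-15). IL1R2, a decoy receptor that is also in the receptor list, was 33.3 ± 2.88 in treated WT and IL1RN, the receptor antagonist of IL1, was 33.1 ± 8.74, and both had no read in WT DMSO. Of 22 tested other secreted genes that are often released with these cytokines, those higher numbered 18 (WT), 13 (E1) and 17 (F2), and SPP1 (osteopontin) had the largest change in WT, from 1.23 ± 1.45 to 6646 ± 1151 (adjusted p = 1.6e-16). The lists share the selection described above for genes silent in DMSO, and the shares of all tested genes called higher were those given for the 39 genes.

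**Figure D5:**
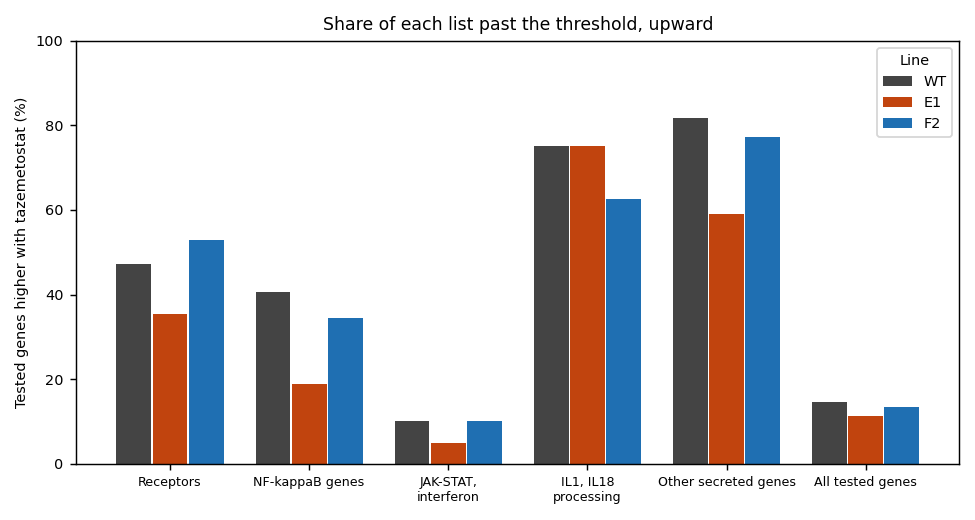
Share of the tested genes of each list called higher with tazemetostat (%, axis from 0 to 100) in WT, E1 and F2, beside the share of all tested genes. The share is 47.1% for receptors, 40.6% for NF-kappaB genes, 10.0% for JAK-STAT and interferon genes, 75.0% for IL1 and IL18 processing genes and 81.8% for other secreted genes in WT, against 14.5% of all tested genes.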

How the data were processed

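PolyA RNA from 18 G401 cultures was sequenced, and the authors deposited 1 table of signal per gene and library: reads counted per gene and divided by a size factor. The submitters' processing notes name Trim Galore 0.4.4, STAR 2.6.0a, HTSeq, DESeq2 and hg19. The annotation and the strand setting of the counting are not given in the sources used here, and the kit keeps strand, per the labels' protocols. The steps between low values gave whole reads for 100% of values and size factors of 0.812 to 1.1449.

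Values were tested as log2(normalized count + 1) with limma 3.58.1 (R 4.3.3), 1 mean per group over all 18 libraries and Benjamini-Hochberg adjustment over the 16154 genes with a mean of at least 10. The 10 contrasts were the change with tazemetostat in each line, each clone against WT in DMSO and under tazemetostat, and the 3 differences of change between lines. edgeR 4.0.16 and DESeq2 1.42.0 on the recovered reads, other scalings, pseudocounts, filters, sample sets, a replicate block and leaving out each library were alternatives. Lower bounds of folds (3 reads per library) and 95% counting intervals cover counting error only. Lengths are unions of GENCODE v29 exons, and promoters were the 250 bases before the start in RefSeq's table. Figures used matplotlib 3.10.9 in Python 3.11.15.

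The members and lists were chosen with earlier results of these data known. By rule, full values are given for tested members called in at least 1 contrast, ranges or values for the others, and at most 4 genes per list and contrast, those with the largest called changes.

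Replicates of a group differed by more than counting noise (chi-square per degree of freedom 2.32 to 61.9). The E1 DMSO pairs were highest, at 29.7 to 61.9, beside 4.05 to 10.9 in WT DMSO and 8.96 to 14.3 in F2 DMSO. The fit shares its estimate of spread over all groups, so limma p-values that involve E1 DMSO may be too small. Same-numbered libraries deviated together, with every correlation over the chosen limit of 0.1, in 1 of 10 contrasts, F2 against WT in DMSO (0.108 to 0.375). The sample titles give replicate numbers and state no pairing, so whether the libraries are paired there is uncertain. The values given are those of the fit without the block.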

Additional observations from a re-analysis of the deposited data

Results flagged for a closer look

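The change with tazemetostat differed between lines, by limma's test of the difference itself, in 26 cases. Each is given as the log2 change in the first line minus that in the second, so that a negative value means a smaller rise in the first. For 14 of the 26, both lines were at 3 reads or fewer in each DMSO library. In 13 of these the DMSO libraries had no read and the value is the difference between treated libraries. The exception, CXCL6 between E1 and WT, had 1 WT DMSO read, and its difference between treated libraries was -1.69.

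Between E1 and WT the difference was 3.34 for CXCL1, -2.76 for CXCL5, -1.37 for CXCL6, -5.45 for CCL2, -1.82 for CCL5 and -1.19 for CCL20. It was -2.74 for IL6, -1.12 for IL34, -2.17 for TNFSF15 and -1.58 for IL32. The value for CXCL1 draws on a DMSO difference of log2 -2.53 (E1 against WT), from 21 WT reads, and CXCL1 was not called between treated E1 and WT. CCL5 lost its call without WT DMSO replicate 1 or 3, WT tazemetostat replicate 1, or E1 DMSO replicate 1 or 2 (limma adjusted p = 0.053 to 0.065). IL34 lost its call without WT DMSO replicate 2, WT tazemetostat replicate 3, E1 DMSO replicate 1 or 2, or E1 tazemetostat replicate 3 (0.056 to 0.062).

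Between F2 and WT the difference was 1.79 for CXCL1, -1.30 for CXCL5, -2.66 for CCL20, 2.36 for TNF and 2.18 for IL32. The value for CXCL1 was 0.30 with a pseudocount of 5 (limma adjusted p = 0.52).

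Between E1 and F2 the difference was 1.55 for CXCL1, -1.46 for CXCL5, -1.44 for CXCL6, -1.18 for IL8, -4.46 for CCL2, -2.64 for CCL5 and 1.46 for CCL20. It was -3.45 for IL6, -3.08 for TNF, -1.75 for TNFSF15 and -3.76 for IL32. CXCL1 lost its call without any 1 of 11 of the 12 libraries, the exception being E1 DMSO replicate 3 (limma adjusted p = 0.062 to 0.092 in the others). IL8 lost its call without F2 tazemetostat replicate 1 (0.051).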

How the results depend on the processing

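Single genes below are named with limma's value unless another tool is given. With no filter on low values, 37 members were tested: 24 were called with tazemetostat in WT (23 higher and 1 lower, against 16.2% of all genes) and 14 between treated E1 and WT (8.86%), where 15 and 9 of 19 were with the filter. With no limit on the size of change, the counts of 19 were 11 for E1 against WT in DMSO (7 with it, and 23.2% of all genes without), 5 for F2 (3 and 20.2%), 14 and 9 under tazemetostat (9 and 51.8%, 5 and 53.1%), and 8 for the response of F2 against WT (5 and 26.9%). Fitted on the groups compared alone, E1 against WT in DMSO gave 4, without CXCL1 (adjusted p = 0.057), IL34 (0.092) and IL16 (0.28). The differences of response numbered 5 with edgeR and 6 with DESeq2 between E1 and WT (10), 3 with either tool between F2 and WT (5), and 4 with either between E1 and F2 (11). The edgeR counts lack the 14 differences with no DMSO library over 3 reads. Where neither line had a DMSO read, edgeR could not call a difference of response. Only CXCL6 changed direction: its response difference between E1 and WT was 0.12 with edgeR (adjusted p = 0.61).

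Leaving out each library in turn gave 15 to 16 calls with tazemetostat in WT, 13 to 13 in E1 and 15 to 15 in F2. The range was 5 to 7 for E1 and 2 to 4 for F2 against WT in DMSO, and 8 to 10 and 5 to 6 under tazemetostat. Response differences numbered 8 to 10 (E1 and WT), 5 to 7 (F2 and WT) and 9 to 11 (E1 and F2). Of 714 called results recomputed so, 33 lost the call.

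With the replicate number as a block, 92 of 93 called results were called again. The exception was IL16 in E1 against WT in DMSO (adjusted p = 0.051). The calls of F2 against WT in DMSO, the 1 contrast with every same-number correlation over 0.1, were kept (adjusted p for CXCL1 6.7e-05, IL6 7.5e-05, CX3CL1 0.026). In each of the other 9 contrasts at least 1 same-number correlation was under 0.1 (lowest -0.303). They include the response difference between F2 and WT, which holds the same DMSO libraries (-0.121 to 0.375), and the response of WT (0.05 to 0.315).

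Scaling every library to the same total moved the median of all genes with tazemetostat in WT from 0.03 to -0.12, and the share of calls that were higher from 68.2% to 57.9%. For the response of F2 against WT the median moved from 0.01 to 0.13 and that share from 64.5% to 75.6%, and for treated F2 against WT the median moved from -0.00 to 0.14. The causes were not tested. With this scaling 2 of 93 called results lost the call. They were IL32 between treated E1 and WT (log2 -0.95) and CXCL1 between the responses of E1 and F2 (limma adjusted p = 0.057). Depth limits the 10 genes with at most 3 reads in every library, for which no change was detectable.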
